A study of Homo sapiens with 36 samples.

Results

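CTCF peaks called after knockdown of CHD3 were set directly against those called after knockdown of CHD4 in HEK293T cells, an established line from human embryonic kidney. The rule took every peak of the siCHD3 list and every peak of the siCHD4 list on chromosomes 1 to 22 and X, and counted a peak as shared where it overlapped a peak of the other list by at least 1 bp and as specific where it did not, whether or not control cells had it. The siCHD3 list held 34319 peaks and the siCHD4 list 25358. Merged with each other they formed 40048 regions, against 54383 for all 6 peak lists of the series. Cells had been transfected with a small interfering RNA (siRNA) against CHD3 or against CHD4 and chromatin was precipitated with an antibody to CTCF, 3 immunoprecipitates for each siRNA. The other lists came from cells given a control siRNA (siNC) or an siRNA against CHD5, MBD2 or MBD3. All groups were the same cell line, all were transfected, and each had 3 inputs. Whether replicates came from separate cultures and how far each knockdown lowered its target were not analysed here.

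CTCF reads its DNA motif with zinc fingers and sits at insulators and loop anchors, where it halts cohesin. CHD3 and CHD4 are closely related helicases that use ATP to move nucleosomes and serve as alternative motor subunits of NuRD, a complex that also removes acetyl groups from histones. CTCF needs its site to be accessible, and remodelling of nucleosomes is one way in which access to a site can change.

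Each list pooled the 3 replicates of its condition, so replicate error cannot be given and the conditions were compared without a test. Intervals are exact Clopper-Pearson 95% intervals of shares and cover counting error only. Fold is the authors' enrichment at a peak's summit over local background and ranks peaks within 1 list. Pileup is the number of fragments stacked at the summit, and local background the number expected there, both solved from the authors' fold and p-value. Depth itself was not measured. The lists differed in the smallest local background, which grows with both sequencing depth and fragment length. This smallest background was 0.445 fragments per bp in siCHD3 and 1.06 in siCHD4. It ranged from 0.374 to 2.96 over the 6 lists. The part of this difference in the results below was not tested.

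CTCF was called at the same place in both knockdowns for 48.1% of the merged regions. Of the 40048 regions, 19268 (interval 47.6 to 48.6) were called in both lists, 15018 (37.5%) in siCHD3 only and 5762 (14.4%) in siCHD4 only. Counted by peak, 43.8% of siCHD3 peaks had no siCHD4 peak (15018 of 34319, interval 43.2 to 44.3) and 22.7% of siCHD4 peaks had no siCHD3 peak (5762 of 25358, interval 22.2 to 23.2). The longer list held more specific peaks, both in number and as a share. When both lists were held to the 25358 peaks of smallest p, the shares came to 29.9% for siCHD3 and 28.7% for siCHD4. Lists of equal length must give nearly equal shares, because overlapping peaks are about as many from either side. The closeness of these shares therefore does not tell whether the knockdowns differ. Peaks near the dividing line were few. Only 7 overlapping pairs shared 10 bp or less, and 4 specific siCHD3 peaks and 5 specific siCHD4 peaks lay less than 10 bp from a peak of the other list. Most specific peaks were far from any counterpart, with a median gap of 23877 bp for siCHD3 and 19796 bp for siCHD4.

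Shared peaks marked the same places closely. Each shared siCHD3 peak was paired with the overlapping siCHD4 peak of highest fold, which gave 19301 pairs. Summits in a pair lay a median of 13 bp apart, and 93.4% were within 100 bp (interval 93.0 to 93.7). The siCHD3 peak was the wider of the pair in 70.7% of pairs, with a median width of 298 bp against 261 bp. Where a stretch was broader in siCHD3, a single siCHD3 peak could span several siCHD4 peaks: 303 siCHD3 peaks overlapped 2 or more siCHD4 peaks, and 33 siCHD4 peaks overlapped 2 or more siCHD3 peaks.

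Specific peaks were the weaker ones in both lists. The median fold in siCHD3 was 7.20 for shared peaks (quartiles 5.84 and 9.23) and 5.11 for specific peaks (quartiles 4.15 and 6.36). In siCHD4 it was 5.22 for shared peaks (quartiles 4.37 and 6.45) and 4.56 for specific peaks (quartiles 3.88 and 5.38). Fold distributions overlapped in each list. Local background and pileup were both lower at specific peaks. The median background in siCHD3 was 1.73 fragments when shared and 0.680 when specific, and in siCHD4 4.44 when shared and 2.69 when specific. The median summit in siCHD3 held 20 fragments when shared and 8 when specific, and in siCHD4 29 when shared and 17 when specific. Specific siCHD4 peaks thus stood on more fragments than specific siCHD3 peaks, in a list whose smallest background was also higher.

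The fall of the specific share with peak strength was steep in siCHD3 and shallower in siCHD4. Deciles were taken within lists of unequal length, 34319 and 25358 peaks. The part of list length in the steepness was not tested. Among the weakest 10% of siCHD3 peaks by fold, 84.7% had no siCHD4 peak, and among the strongest 10% it was 5.51% (interval 4.77 to 6.32). In siCHD4 the share fell from 39.2% of the weakest 10% to 4.57% of the strongest 10% (interval 3.79 to 5.46). In the strongest 10% the intervals of both lists overlapped. By pileup the order of the lists turned: at 10 fragments or fewer, 80.1% of siCHD3 peaks and 48.5% of siCHD4 peaks were specific, whereas at 21 to 30 fragments it was 16.5% in siCHD3 and 22.7% in siCHD4. The same pileup stands for a different enrichment in lists of different background. Above 100 fragments, 37 of 513 siCHD4 peaks were specific (7.21%, interval 5.13 to 9.80). These 37 had a median fold of 1.86 over a median local background of 118 fragments, while the 476 shared siCHD4 peaks of that pileup had a median fold of 19.2 over a background of 10.1.

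**Figure D1:**
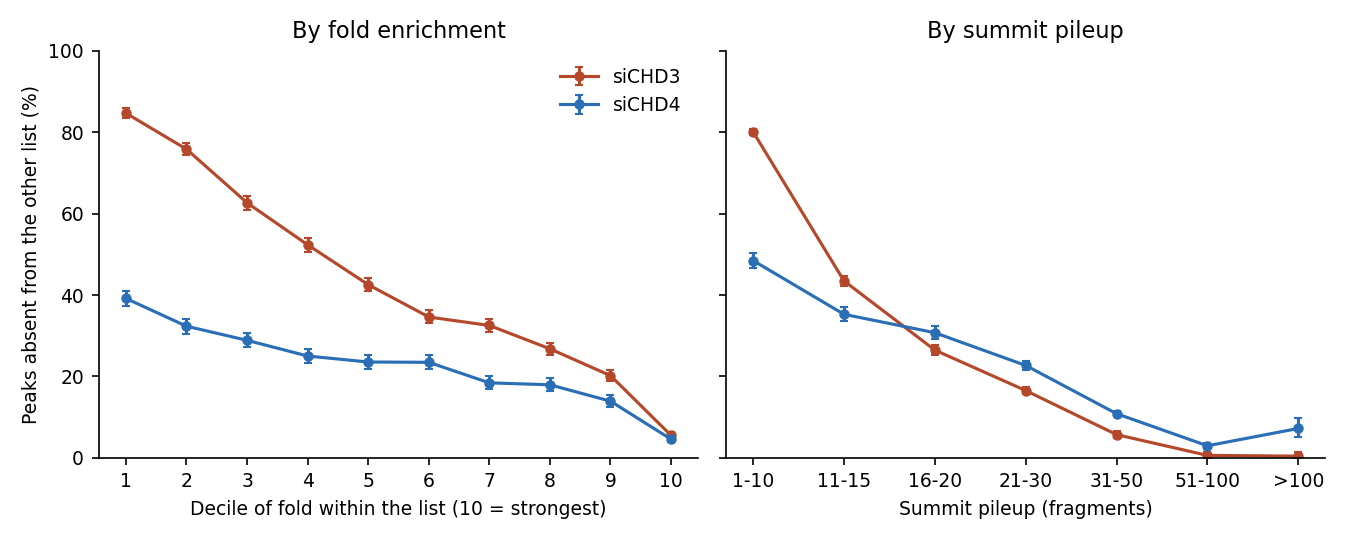
Share of peaks with no overlapping peak in the other list (vertical axis, percent) by decile of fold within each list (left) and by summit pileup in fragments (right), for siCHD3 and siCHD4. Bars are exact 95% intervals; the siCHD3 share falls from 84.7% in the weakest decile to 5.51% in the strongest, and the siCHD4 share from 39.2% to 4.57%.

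Width followed the same pattern. Of siCHD3 peaks of at most 200 bp, 66.3% were specific, and of those over 1 kb 6.19% (58 of 937, interval 4.73 to 7.93). In siCHD4 the share fell from 38.4% at 200 bp or less to 0 of 353 peaks over 1 kb, a count of 0 that allows a share of up to 0.850% taken as 3 counts of the total, or 1.04% as the upper bound of the exact interval. A wider peak also has more bases with which to overlap. Peaks with several summits were specific in 7.69% of 1560 cases in siCHD3 and 3.11% of 1029 in siCHD4.

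Wide peaks were more numerous in these lists than in the other 4. The siCHD3 list held 937 peaks over 1 kb and the siCHD4 list 353, against 164 in siNC, 64 in siMBD3, 39 in siCHD5 and 33 in siMBD2. The widest siCHD3 peak ran over 7207 bp of chromosome X from 73040530 to 73047736 (hg19, 1-based) with 9 summits and a fold of 41.7. The widest siCHD4 peak ran over 4504 bp of chromosome 10 from 129901555 to 129906058 with 10 summits and a fold of 14.4. It lay inside the second widest siCHD3 peak, on chromosome 10 from 129900917 to 129907635, which had 13 summits and a fold of 22.3. Next in siCHD3 came chromosome 16 from 2811602 to 2817071 (12 summits, fold 33.8), and a region on chromosome 6 was among the widest of both lists, from 151669934 to 151674817 in siCHD3 (fold 24.7) and from 151671310 to 151674826 in siCHD4 (fold 11.4). Gene annotation of hg19 was not used here, so what these stretches contain is not given. Of the 937 wide siCHD3 peaks, 93.8% overlapped a siCHD4 peak and 81.4% a siNC peak, but 38.3% a siCHD5 peak (interval 35.2 to 41.5) and 46.6% a siMBD2 peak. The siMBD3 list had 67.1% of them. Of the wide siCHD3 peaks, 126 (13.4%) were in none of the other 4 lists, against 53.3% of specific and 8.83% of shared siCHD3 peaks of any width. Over siCHD3 peaks of any width the shares that overlapped each single list were 56.2% in siCHD4, 67.4% in siNC, 59.5% in siCHD5, 53.7% in siMBD2 and 53.1% in siMBD3. The wide siCHD3 peaks were thus above the whole list in siCHD4, siNC and siMBD3 and below it in siCHD5 and siMBD2. All 353 wide siCHD4 peaks overlapped a siCHD3 peak, 345 (97.7%) a siNC peak and 225 (63.7%) a siCHD5 peak, against 83.2% and 74.0% of siCHD4 peaks of any width in siNC and siCHD5. In siMBD2 it was 71.4% of the wide siCHD4 peaks and in siMBD3 87.8%, against 67.6% and 66.2% at any width.

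The order of strength was closer among the strongest pairs than among the rest. Over all 19301 pairs, fold in siCHD3 and fold in siCHD4 had a Spearman correlation of 0.458, given as a description because peaks of 1 list share their libraries. In the 10% of pairs with the highest siCHD3 fold the correlation was 0.823, and in the remaining 17370 pairs it was 0.288. The top 10% spanned siCHD3 folds of 14.5 to 207 and the rest 1.53 to 14.5, and a correlation also depends on the range it covers. Sorting by siCHD4 fold instead gave 0.82 in the top decile and 0.30 in the others. These strongest 1931 pairs were wide, with a median siCHD3 width of 642 bp against 282 bp in the fifth decile, and 25.4% of them exceeded 1 kb in siCHD3. They were called in siNC nearly as a rule (95.0%), and in siMBD3 in 85.9%, but in siCHD5 in 56.3%. Over all shared siCHD3 peaks the shares were 88.2% in siNC, 73.9% in siMBD3 and 77.6% in siCHD5. The lower share in siCHD5 was not limited to the top decile, since the ninth decile had 54.8%. A lower share was not limited to siCHD5 either. In siMBD2 it was 67.5% in the top decile and 58.5% in the ninth, against 74.0% over all shared siCHD3 peaks. The ninth decile was also below all shared siCHD3 peaks in siNC (84.0%) and siMBD3 (68.0%). Of the 10% of pairs strongest in siCHD3, 74.1% were also in the strongest 10% in siCHD4 (interval 72.1 to 76.0).

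**Figure D2:**
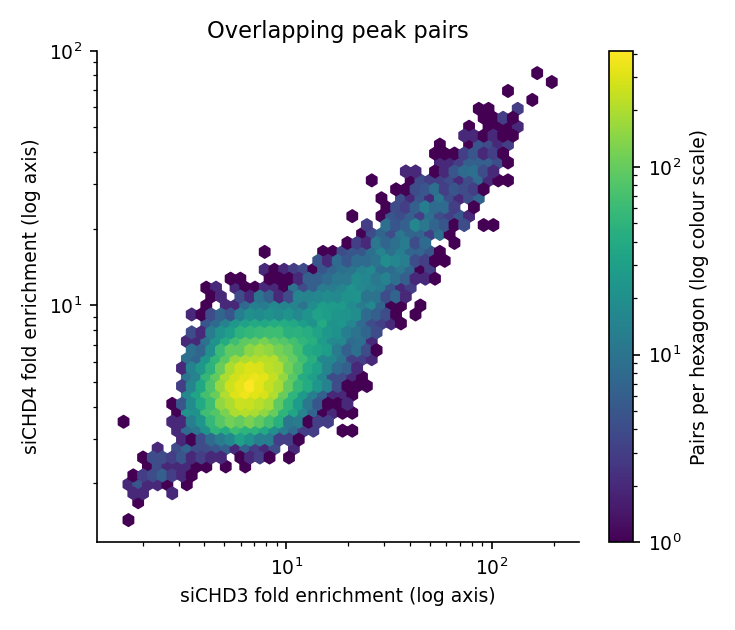
Fold enrichment of the 19301 overlapping pairs in siCHD3 (horizontal) and siCHD4 (vertical), both on log axes, with colour for the number of pairs per hexagon on a log scale. A round cloud of moderate peaks (median fold 7.20 for shared siCHD3 peaks) leads into a narrow arm of strong peaks that rise together, up to a fold of 207 in siCHD3 and 81.7 in siCHD4.

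The strongest shared regions were called in every list of the series and had their highest fold in siCHD3. They were chosen by their fold in siCHD3 and siCHD4, and the scale of fold differed between lists. The highest fold of any peak was 207 in siCHD3 and 81.7 in siCHD4. It was 42.4 in siMBD3, 35.1 in siMBD2, 31.2 in siCHD5 and 26.1 in siNC. On chromosome 20 from 55176699 to 55177153 the fold was 207 in siCHD3 and 74.1 in siCHD4, against 20.7 in siNC and 17.0 to 22.7 in the other 3 lists. Its summit held 567 fragments in siCHD3 and 417 in siCHD4. On chromosome 2 from 63911401 to 63911814 the fold was 167 in siCHD3 and 81.7 in siCHD4, the siCHD4 maximum, against 13.7 in siNC. On chromosome 1 from 27533357 to 27534117 it was 149 in siCHD3, 62.5 in siCHD4 and 16.2 in siNC. Fold depends on each list's background. At these summits the background was lower in siCHD3 than in siCHD4 (1.74 against 4.64 fragments at the chromosome 20 region), and the pileup was higher. The parts of background and pileup in the difference in level were not tested, so it cannot be read as more CTCF.

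Some shared regions held opposite places in the order of the lists. Ranks here run over the 19301 pairs only, so both lists have equal length. The median difference between the ranks of a pair was 18.1 percentile points, and 11.3% of pairs differed by more than 50 points (interval 10.8 to 11.7). The largest difference towards siCHD3 was on chromosome X from 131209058 to 131209742, at percentile 94.6 in siCHD3 (fold 21.6) and 1.64 in siCHD4 (fold 3.14), with a fold of 2.3 in siNC. Next was chromosome 6 from 158612995 to 158613305, with a fold of 18.0 in siCHD3, 3.28 in siCHD4 and 4.02 in siNC. The largest difference towards siCHD4 was on chromosome 11 from 126586357 to 126586658, at percentile 95.1 in siCHD4 (fold 12.1) and 2.96 in siCHD3 (fold 4.08), with a fold of 6.23 in siNC. At chromosome 1 from 246859792 to 246860056 the fold was 10.2 in siCHD4 and 3.91 in siCHD3, and 6.48 to 13.4 in the other 4 lists. At their weaker end these pairs rested on 5 to 19 fragments.

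Specific siCHD3 and specific siCHD4 peaks differed in how often other lists held them. Of the 15018 specific siCHD3 peaks, 6105 (40.7%, interval 39.9 to 41.4) overlapped a siNC peak, against 3967 of 5762 specific siCHD4 peaks (68.8%, interval 67.6 to 70.0) and 88.2% of shared siCHD3 peaks. The majority of specific siCHD3 peaks, 8010 (53.3%), were in none of the other 4 lists, against 1432 specific siCHD4 peaks (24.9%). The size of this gap depended on how the lists were limited. With both lists held to 25358 peaks, the overlap with siNC came to 63.9% for siCHD3 and 67.8% for siCHD4, whereas among peaks of every list whose −log10 q reached 5 it was 60.6% (5167 of 8525) and 89.0% (3972 of 4462). The 8010 siCHD3 peaks seen nowhere else had a median fold of 4.48 and a median pileup of 6 fragments. The 1432 siCHD4 peaks seen nowhere else had a median fold of 3.88 and a median pileup of 8 fragments.

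At the other end stood sites that every other list had. Such sites were a smaller share of specific peaks than of shared peaks, of which 61.2% in siCHD3 and 60.4% in siCHD4 were in all 4. There were 2533 specific siCHD3 peaks in all 4 other lists (16.9% of the specific ones), so that siCHD4 was the only list of the series without them, and 1779 specific siCHD4 peaks (30.9%) for which siCHD3 was the only list without them. Their strength was moderate: a median fold of 6.36 and 18 fragments in siCHD3 for the former, and 4.89 and 28 fragments in siCHD4 for the latter. Shared peaks in all 4 other lists had medians of 7.20 in siCHD3 and 5.22 in siCHD4. Seen from control, 17261 of 36270 siNC peaks (47.6%) were called in both knockdowns, 6153 (17.0%) in siCHD3 only, 3962 (10.9%) in siCHD4 only and 8894 (24.5%) in neither. The median siNC fold was 5.74 for those in both, 4.94 for siCHD3 only, 5.26 for siCHD4 only and 4.49 for neither. A further 1704 shared siCHD3 peaks (8.83%) were in none of the other 4 lists. They were broad in siCHD3, with a median width of 377 bp against 287 bp for the 11810 shared siCHD3 peaks in all 4. In siCHD4 the difference was smaller, with 275 bp for the 1855 shared peaks in none of the other 4 and 257 bp for those in all 4.

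**Figure D3:**
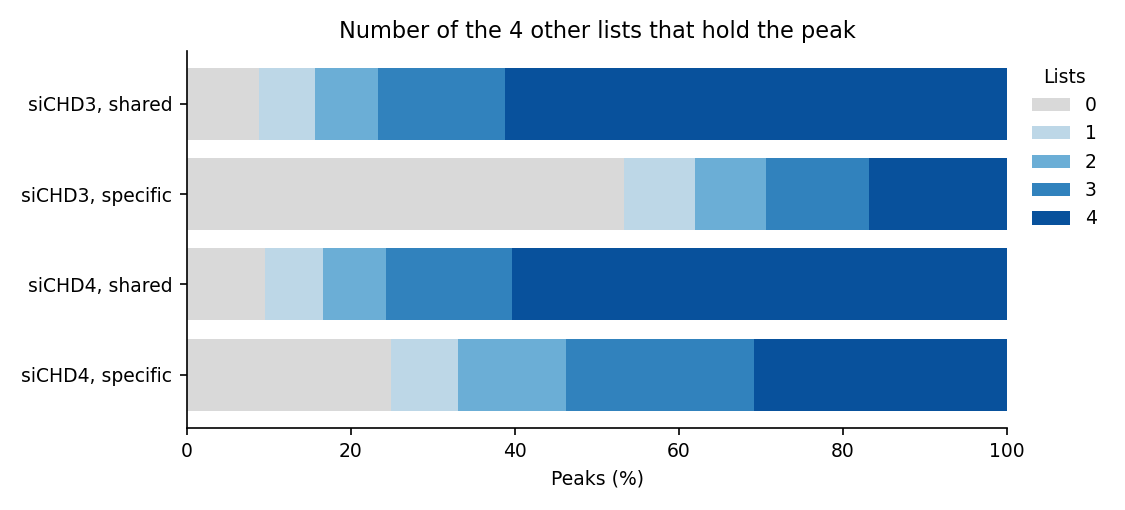
Share of shared and specific peaks of each list (horizontal axis, percent) held by 0, 1, 2, 3 or 4 of the siNC, siCHD5, siMBD2 and siMBD3 lists. The part held by none is 53.3% of specific siCHD3 peaks and 24.9% of specific siCHD4 peaks, against 8.83% and 9.47% of the shared ones.

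The leading specific siCHD3 peaks were a mixture. Of the 10 strongest with no siCHD4 peak within 1 kb, 6 were also called in siNC, 3 in all of the other 4 lists and 3 in none of them. Of the 10 strongest at any distance from a siCHD4 peak it was 5, 2 and 4. Among siCHD3 peaks, 40.6% had no siCHD4 peak within 1 kb, and these were led by chromosome 1 from 43148095 to 43148341 (fold 25.2, 44 fragments over a background of 0.785). The runner-up was chromosome 15 from 79529129 to 79529357 (fold 21.1, 40 fragments). Neither was called in any of the other 4 lists. The third, on chromosome 20 from 61827565 to 61828092 (fold 20.2), had a fold of 5.69 in siNC, and the fourth, on chromosome 14 from 20779635 to 20779917 (fold 19.6), a fold of 10.8 in siNC and 5.42 in siCHD5. Every list but siCHD4 had a peak on chromosome 22 from 24231067 to 24231450 (fold 17.4). The same was true of chromosome 6 from 31566364 to 31566695 (fold 17.2). At the chromosome 6 region the fold was 6.27 in siNC, 7.86 in siCHD5, 7.32 in siMBD2 and 9.21 in siMBD3.

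The leading specific siCHD4 peaks were mostly sites that control cells also had, with 9 of the 10 strongest called in siNC, both with and without the limit of 1 kb. Among siCHD4 peaks, 21.0% had no siCHD3 peak within 1 kb. The first of them lay on chromosome 9 from 38416979 to 38417427 (fold 14.1, 34 fragments) and was called in every list but siCHD3, with folds of 7.59 in siNC, 9.43 in siCHD5, 8.30 in siMBD2 and 5.17 in siMBD3. Chromosome 8 from 133785409 to 133785635 (fold 12.4) had a fold of 11.2 in siNC and was missing from siCHD3 and siMBD2. Chromosome 18 from 57298895 to 57299183 (fold 12.2) was again missing from siCHD3 alone, with 3.62 in siNC and 10.1 in siCHD5. The exception near the top was chromosome 11 from 10830236 to 10830471 (fold 10.9, 25 fragments), called in siCHD4 only. At chromosome 7 from 8763829 to 8764130 (fold 10.3) the nearest siCHD3 peak was 286963 bp away.

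Specific peaks were unevenly spread over chromosomes. Both lists' shares are counted against the same shared regions, so likeness between them is partly built in. Chromosome 18 had the highest share in both, 51.5% of 530 siCHD3 peaks and 32.1% of 383 siCHD4 peaks (intervals 47.2 to 55.8 and 27.5 to 37.0), against 43.8% and 22.7% over all chromosomes. Chromosomes 4 and 16 were also high in siCHD3, at 48.8% and 50.2%, and chromosome 4 reached 29.9% in siCHD4. The lowest shares were on chromosome X in siCHD3 (37.5% of 1686 peaks, interval 35.2 to 39.9) and on chromosome 1 in siCHD4 (18.7% of 2694, interval 17.3 to 20.3). Other chromosomes held different places: chromosome 19 ranked 7 in siCHD3 and 18 in siCHD4, and chromosome 10 ranked 20 and 9, counted from the highest share. Over the 23 chromosomes the specific share had Spearman correlations with the median local background of a chromosome's peaks of -0.824 in siCHD3 and -0.656 in siCHD4. This is a description only, and it is partly built in, because that median includes the specific peaks. Their own median background was 0.680 fragments against 1.73 for shared peaks in siCHD3, and 2.69 against 4.44 in siCHD4. On chromosome 18 the median over all its peaks was 0.732 fragments in siCHD3 and 2.69 in siCHD4, against 1.15 and 4.03 over all chromosomes. The part of the background in the result was not tested.

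**Figure D4:**
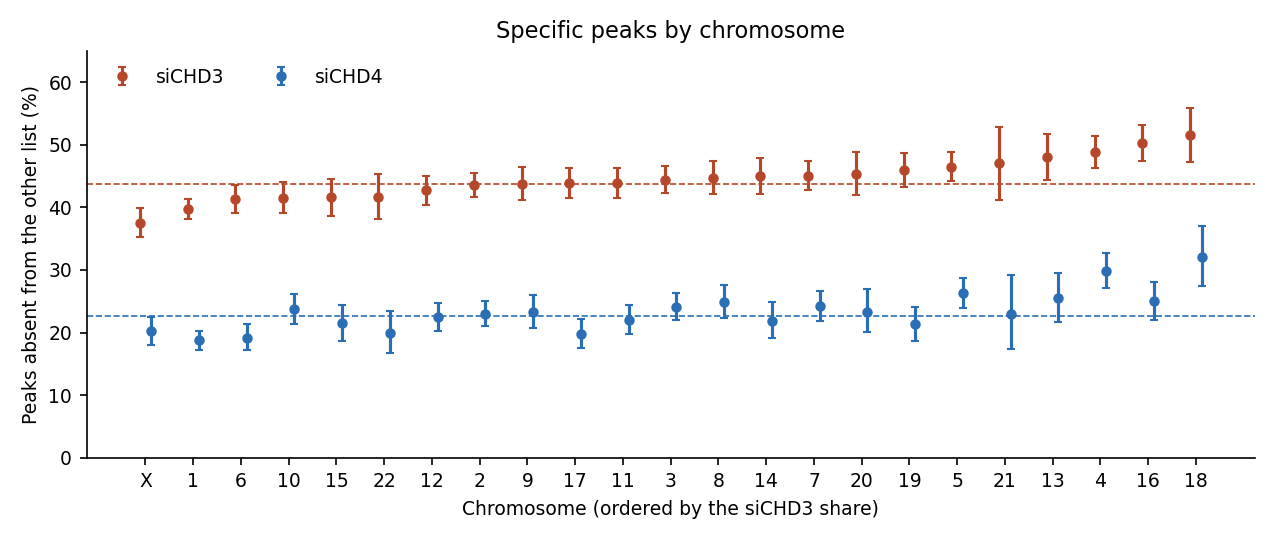
Share of peaks with no overlapping peak in the other list (percent) on each chromosome, ordered by the siCHD3 share, with exact 95% intervals. Dashed lines mark 43.8% for all siCHD3 peaks and 22.7% for all siCHD4 peaks; chromosome 18 is highest in both lists.

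The likeness of the siCHD3 and siCHD4 lists depended on what was compared. By shared regions it was moderate. At equal length, 54.4% of merged regions were in both, above siCHD3 with siNC (53.3%), siCHD4 with siNC (53.2%), siCHD3 with siCHD5 (50.6%) and siCHD4 with siCHD5 (50.9%). The pair ranked 7 of 15, below all 6 pairs formed among siNC, siCHD5, siMBD2 and siMBD3, of which siNC with siCHD5 reached 76.7%. With lists of full length it ranked 12 of 15 at 48.1%, below siCHD4 with siNC (52.2%). By order of strength the pair came first over whole sets of overlaps, but not once the strongest overlaps were set aside. Over the 11811 regions called in all 6 lists, the Spearman correlation of fold was 0.395 for siCHD3 with siCHD4, the highest of the 15 pairs. The next were close: siCHD4 with siNC at 0.379, siNC with siCHD5 at 0.366 and siCHD5 with siMBD2 at 0.363. The pair of siCHD3 with siCHD5 gave 0.153. In the 10% of overlaps with the highest siCHD3 fold the gap was wider. The correlation was 0.823 for siCHD3 with siCHD4, 0.576 with siMBD3, 0.560 with siNC and -0.257 with siCHD5. These values also depend on the range of fold, which reached 81.7 in siCHD4, 42.4 in siMBD3, 26.1 in siNC and 31.2 in siCHD5. Outside the top 10% of each pair's overlaps, siCHD3 with siCHD4 gave 0.288. That was below siNC with siCHD5 (0.353) and siCHD5 with siMBD2 (0.308), and near siNC with siMBD2 (0.286). With 1 list per condition, none of these differences between pairs could be tested.

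**Figure D5:**
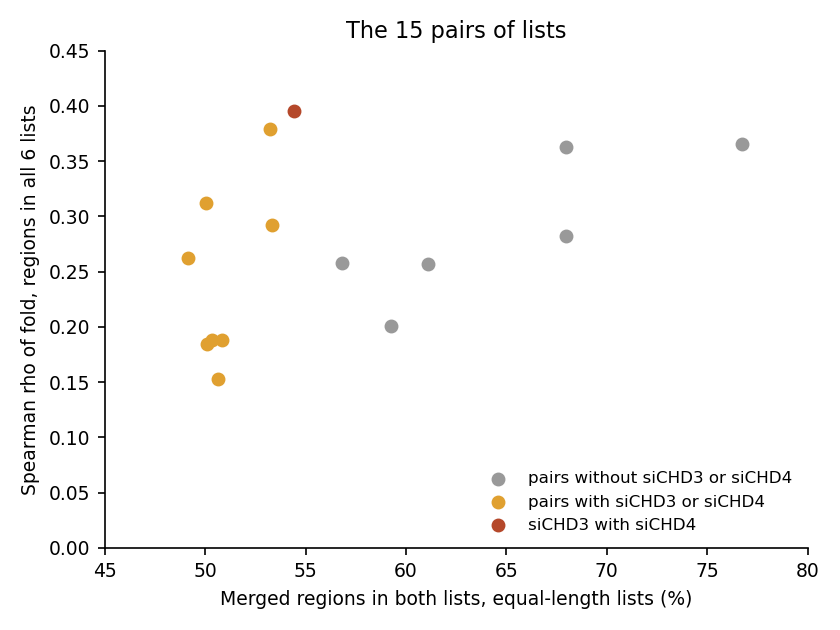
Each point is 1 of the 15 pairs of peak lists, placed by the share of merged regions called in both at equal list length (horizontal, percent) and by the Spearman correlation of fold over the 11811 regions called in all 6 lists (vertical). The pair of siCHD3 with siCHD4 has the highest correlation, 0.395, at a moderate share of 54.4%.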

How the data were processed

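CTCF ChIP-seq libraries and inputs were paired-end, per the labels' protocols. Bowtie2 2.3.4, SAMtools 1.9, MACS2 2.1.2 and bedtools 2.25.0 were among the tools, with hg19 as build, per the submitters' processing notes. Settings are not given in the sources used here. Deposited peak lists name the 3 replicates as called together, treatment against control. Fold is the authors' linear ratio, beside the deposited −log10 of p and of q. In the authors' deposited table for either knockdown, −log10 q started at 1.30. The deposited display score was not used.

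Rows sharing chromosome, start and end were counted once, at the summit of highest fold. Whole-number pileups were solved from fold, taken as pileup plus 1 over background plus 1, and a Poisson p, and every list had 100% of its peaks matched to p within 0.01%. Touching peaks that share no base were not merged. With read counts not used here, depth was not measured, and the smallest background stood for it. Named regions follow a rule: the leading shared pairs by the lower of both ranks, the leading specific peaks without a partner within 1 kb, the widest peaks and the largest rank differences. Peaks present in all other lists, deciles of pairs, pileup classes, the comparison of list pairs, density and windows of 10 Mb were added after values were seen. Members and lists were chosen with earlier results of these data known. Overlap and pileup code was tested on simulated data. Motifs, sequences and genes were not analysed, because no hg19 genome or annotation was used here. Python 3.11.15, numpy 2.4.6, pandas 2.3.3 and scipy 1.17.1 were used.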

Additional observations from a re-analysis of the deposited data

Results flagged for a closer look

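Peaks outside chromosomes 1 to 22 and X entered no comparison above. Mitochondrial DNA carried 8 peaks in siCHD3 and 9 in siCHD4 where siNC and siCHD5 had 0, siMBD2 2 and siMBD3 7. Their fold reached at most 2.66 in siCHD3 and 1.61 in siCHD4. Unplaced and alternate contigs carried 986 peaks in siCHD3 and 621 in siCHD4, against 552 in siNC, 561 in siCHD5, 570 in siMBD2 and 584 in siMBD3. The lists differed in length: on chromosomes 1 to 22 and X they held 34319, 25358, 36270, 31451, 26087 and 25848 peaks in the same order.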

How the results depend on the processing

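Of 41 alternative values, 24 stayed within 1.5 times the reported count or within the interval of the reported share, and 17 did not, counting 3 correlations for which no interval was computed. Specific siCHD3 peaks numbered 15018 as reported, 8525 (35.5%) when both lists were held to −log10 q of 5 or more, 5766 (40.7%) at 10 or more, 7582 with lists of equal length and 2360 (16.7%) at 10 or more in the siCHD3 list only. Specific siCHD4 peaks left that range under 1 setting, 10 in the siCHD4 list only (1289, 10.4%), and regions in both lists at 10 or more in each list (8397, against 19268). A threshold on both lists also removes weak partners of strong peaks. The correlation of fold over pairs was 0.445 with summits within 100 bp, 0.562 for −log10 p and 0.412 without peaks over 1 kb, the last chosen after the data were seen. With equal lengths and with −log10 q of 5 or more, the specific share was 38.3% and 43.9% on chromosome 18 and 22.9% and 26.7% on chromosome X in siCHD3, and 43.6% and 39.5% on chromosome 18 and 24.1% and 16.5% on chromosome 1 in siCHD4. These stayed the extreme chromosomes, except that chromosome 6 (23.8%) was lowest in siCHD4 at equal length. No paired analysis was possible because each list pools its replicates, and for the same reason no replicate could be left out. The fold of a specific siCHD3 peak rested on few fragments, a median of 8 at the summit.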

Other observations

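The next peak was specific slightly more often after a specific peak than after a shared one. After a specific siCHD3 peak, the next siCHD3 peak along the chromosome was specific in 46.5% of cases, against 41.6% after a shared peak (intervals 45.7 to 47.3 and 40.9 to 42.3). In siCHD4 it was 26.0% against 21.8% (intervals 24.8 to 27.1 and 21.2 to 22.4). Peaks in sparse surroundings were specific more often. In the 20% of siCHD4 peaks with the fewest merged regions within 500 kb, 29.4% were specific, against 20.1% in the 20% with the most, with median local backgrounds of 3.36 and 4.30 fragments. In siCHD3 the shares were 47.5% and 43.0%, at 1.05 and 1.15 fragments. These medians include the specific peaks, whose own background was lower. The part of the background in these differences was not tested.

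Among 238 windows of 10 Mb with at least 50 peaks in each list, a window on chromosome 5 from 60000001 to 70000000 had the highest specific share in siCHD3 (63.1% of 122 peaks, interval 53.9 to 71.7) and the second highest in siCHD4 (48.2% of 85). The highest in siCHD4 was chromosome 7 from 60000001 to 70000000, with 52.2% of 67 peaks, where siCHD3 had 61.5% of 78. The lowest in siCHD3 was chromosome X from 100000001 to 110000000, with 24.7% of 174 peaks (10.7% of 149 in siCHD4). These windows were picked as the extremes of 238.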
